A study of Mus musculus with 9 samples.

Results

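Endothelial cells, which line the blood vessels, were examined in droplet-based single-cell RNA-seq of ependymoma tissue from 5 tumor-bearing mice and of brain from 4 control mice. Cells were selected on their own transcripts. The 10000 barcodes of each library that held most UMIs (unique molecular identifiers, by which captured transcripts are counted) were considered, and those with 200 to 6000 genes and under 15% mitochondrial UMIs were kept. Tumor replicate 3 held only 9001 barcodes, all of which were considered. A kept barcode counted as an endothelial cell if at least 4 of the 8 genes Cldn5, Flt1, Pecam1, Ly6c1, Kdr, Cdh5, Egfl7 and Tek were detected and fewer than 3 of the 6 mural cell genes Rgs5, Kcnj8, Abcc9, Pdgfrb, Higd1b and Vtn. This gave 1333 cells of 64617 kept barcodes. Control replicates 1 to 4 gave 26, 27, 17 and 22 cells, 92 in all. Tumor replicates 1 to 5 gave 144, 251, 328, 297 and 221 cells, 1241 in all.

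The genotype label of the tumors is NestinCreERT2;Fus1 and that of the controls NestinCreERT2;TdT, so the tamoxifen-inducible Cre is common to both groups and the labels name the fusion in the tumors and a reporter in the controls. Per the study's methods, the tumor was dissected by its TdTomato signal, so a reporter was present in tumor mice too. EP ZFTA-RELA mice express a conditional ZFTA-RELA fusion, inserted at Rosa26, in Nestin-expressing cells and their progeny. All mice were 6 to 8 weeks old. Tissue was dissected with the choroid plexus taken away, dissociated, spun through Percoll, stained for the red cell protein Ter119 and sorted. The study's methods also name an antibody to CD45, a protein of leukocytes, and the labels do not give the gate, so its part in the shares of cells below was not tested. No antibody against an endothelial protein is named in the labels.

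Brain capillary endothelium forms the blood-brain barrier. Its cells are joined by tight junctions, carry nutrient transporters such as the glucose carrier Slc2a1 and the lipid carrier Mfsd2a, and are held in this state by Wnt signalling. Growing vessels are led by tip cells, which make Angpt2, Apln, Dll4 and Adm and lay down a new basement membrane of type IV collagen and laminin. Vessels that have lost the barrier often gain Plvap, a protein of the diaphragms of fenestrae and caveolae.

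The libraries of the controls held 101060608 to 178086164 UMIs over 75222 to 86516 barcodes, and those of the tumors 14967680 to 69411387 UMIs over 9001 to 26341 barcodes. The endothelial cells themselves held 58257 to 100254 UMIs per control and 431470 to 1722616 per tumor. Their median depth overlapped, at 2170 to 3951 UMIs in controls and 1480 to 4070 in tumors. Their median mitochondrial share did not, at 11.2% to 11.8% in controls and 2.14% to 9.34% in tumors. Tumor replicate 3 stood apart. Its endothelial cells held 81685 CPM (UMI counts scaled to a library total of 1000000) of 5 hemoglobin and red cell genes, against 13.4 to 1437 in the other tumors and 68.7 to 8933 in controls, and 109 of its 328 cells had under 1000 UMIs. Results that rest on this mouse are given with and without it. Among the 8 libraries with a usable barcode list, which leaves out control replicate 4, no barcode was an endothelial cell in more than 1 library. Within a pair of these, up to 3 endothelial barcodes of 1 library were also kept barcodes in the other, counted in each direction. The feature list of that control also names fewer added sequences than its matrix has rows. It lists the mouse genes in the same order as the other libraries, so its gene rows were used. No pair of replicates was alike within sampling noise.

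The label was checked against genes that the rule did not use. In controls, the leading genes of these cells against all other kept barcodes included Slco1a4, an organic anion transporter of the barrier, at 1042 against 7.11 CPM, and Cxcl12, a chemokine, at 1741 against 16.4 CPM. In tumors they included Ly6a at 2333 against 39.7 CPM and Pglyrp1 at 1466 against 25.3 CPM, both marking brain endothelium, and the endothelial transcription factors Sox17 and Sox18. The mural gene Rgs5 also ranked high in the control cells, at 1227 against 16.2 CPM, as much as Cldn5. These ratios describe cells chosen by linked genes and were not tested. The 8 selecting genes summed to 4918 to 7565 CPM in controls and 8523 to 16702 CPM in tumors. Cells just inside the rule, with exactly 4 of the 8 genes, numbered 23 in controls and 282 in tumors, and those just outside, with 3, numbered 22 and 367. A further 71 control and 160 tumor barcodes passed the endothelial part and were left out for mural genes. The 5 lymphatic endothelial markers summed to 16.5 to 105 CPM in controls and 70.9 to 98.1 in tumors. Ccl21a was at 0 in all 9 mice, whereas Prox1 gave 8 UMIs in controls and 25 in tumors with none of the mice at 0, Lyve1 1 and 11, and Pdpn 1 and 66. Most of the tumor sum was Flt4, a receptor that sprouting vessels also carry, with 7 and 294 UMIs.

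Endothelial cells made up a larger share of kept barcodes in every tumor than in any control. The share was 0.320%, 0.363%, 0.265% and 0.308% in control replicates 1 to 4 and 5.06%, 4.22%, 4.90%, 2.97% and 2.21% in tumor replicates 1 to 5. The means were 0.314% ± 0.0407 (SD, n = 4) and 3.87% ± 1.24 (SD, n = 5), a difference of 3.56 percentage points (p = 0.0159 by an exact permutation test, two-sided, where 5 against 4 mice cannot go below 0.00794). Without tumor replicate 3 the difference was 3.30. Shares of a sorted library also follow what else was captured, and the libraries differed in depth, since the smallest barcode considered held 1473 to 2695 UMIs in controls and 500 to 2113 in tumors. The mitochondrial limit removed 1870 to 3573 barcodes in controls and 7154, 4041, 2218, 1 and 3 in tumor replicates 1 to 5. The kept barcodes of tumors thus ran from 2845 in replicate 1 to 9994 in replicate 4. With 1 minimum of 2695 UMIs in every library, the shares were 0.308% to 0.489% in controls and 2.21% to 11.3% in tumors. Microglia, the resident macrophages of the brain, offered a second denominator. Of endothelial cells plus microglia, endothelial cells were 9.70%, 7.44%, 5.86% and 7.51% in controls and 27.1%, 13.7%, 18.0%, 11.7% and 18.4% in tumors, a difference of 10.2 percentage points (two-sided exact permutation test, p = 0.0159). The groups did not overlap on any of these shares.

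**Figure D1:**
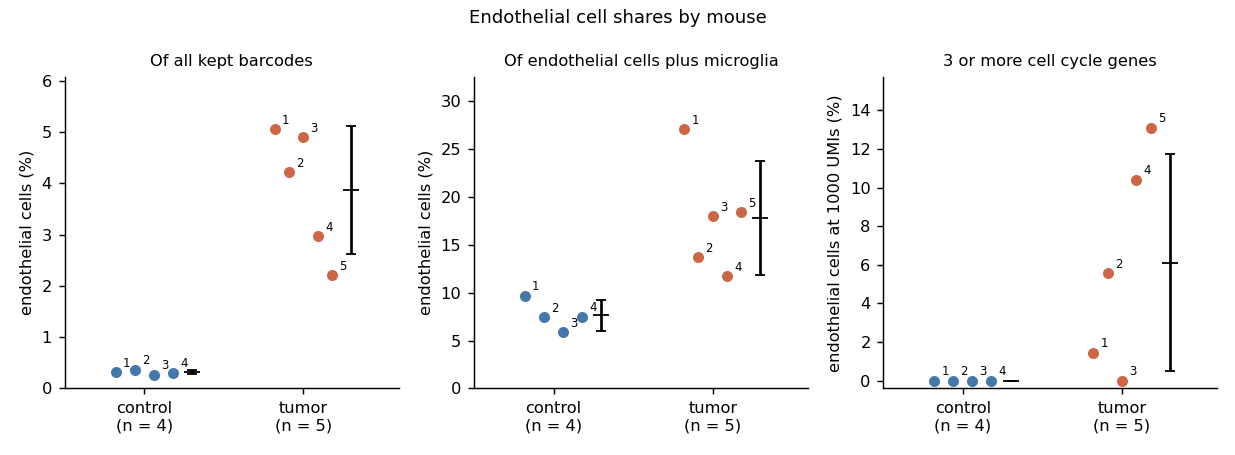
Endothelial cells by mouse, with the replicate number beside each point and the group mean ± SD as a bar: percent of all kept barcodes (left), percent of endothelial cells plus microglia (middle), and percent of endothelial cells with 3 or more cell cycle genes after thinning to 1000 UMIs (right). Tumors lie above every control in the left and middle panels, at 2.21% or more against 0.363% or less in the left one, while tumor replicate 3 joins the controls at 0 in the right one.

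Transcripts of other cell types were present and differed between the groups. Of the control endothelial cells, 91 of 92 had at least 3 of 10 neuronal genes detected, against 272 of 1241 tumor cells. The summed neuronal level was 3758 to 7614 CPM in controls and 108 to 1991 CPM in tumors. Set against free RNA (the 3000 barcodes with fewest UMIs of the same library), it came to 0.497 to 1.02 times the free level in controls and 0.113 to 0.382 times in tumors. The choroid plexus list of 5 genes ran the same way, at 818 to 1122 against 1.87 to 151 CPM, nearly all of it Ttr, with 1 to 4 of the 5 genes at 0 in each mouse. A list of 16 mural markers, 6 of which the rule used, gave 1267 to 2437 CPM in controls and 78.3 to 1004 in tumors. The fusion tumor cell list of 8 genes, which includes Igf2, H19 and Dlk1, gave 115 to 259 CPM in controls and 121 to 2673 in tumors, and the 8 microglial genes 178 to 978 and 450 to 1785. In the other kept barcodes the fusion list gave 768 CPM in tumor replicate 1 and 1237 in replicate 3, against 2716 to 7509 in the other tumors. The neuronal list gave 11468 CPM there in tumor replicate 1 and 414 to 4259 in the other tumors. How much brain outside the tumor each library held was not tested. The part of transcripts of other cell types in any gene difference was not tested beyond the 2 adjustments that follow and 1 further fit. That fit left out cells with at least 3 of the microglial genes or at least 3 of the fusion tumor cell genes. In the first adjustment, each library's free RNA profile was subtracted in the amount set by the neuronal list, at most 1 times the free level. Negative counts were set to 0. This left 26.1% to 54.8% of the UMIs in controls and 64.0% to 88.9% in tumors. In tumor replicate 3 the 3000 barcodes taken as free RNA were also among its 9001 barcodes considered as cells. Its free RNA held 972 CPM of the 8 selecting genes, against 228 to 541 in the other tumors. Free RNA was thus not separate from cells in that library, which limits every free RNA value given here. In the second adjustment, mice were scaled on their summed counts of the 8 selecting genes, so that a gene is read per unit of endothelial transcript.

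Gene expression was compared on UMI sums per mouse with the quasi-likelihood test of edgeR, and a gene is said to have risen or fallen where its Benjamini-Hochberg adjusted p was under 0.05 over the 6820 genes tested. In tumor endothelium 817 genes rose (12% of those tested) and 733 fell (10.7%). Without tumor replicate 3, 698 rose and 704 fell of 4675 tested, and without control replicate 4, 492 rose and 388 fell of 7951. The median gene tested differed by 0.10 on the log2 scale. Scaling on the 8 selecting genes moved the median by -1.05, and 106 genes then rose while 2550 fell. That scaling rests on genes the rule used and moves most genes down together, so the values under it are a description and support no call. Of the 817 genes, 726 kept a positive sign under that scaling. With free RNA subtracted, 992 rose and 118 fell of 5207 tested, and 480 of the 817 still passed. Without cells carrying microglial or fusion tumor cell markers, 723 rose and 717 fell of 5839 tested. In a bulk sum, fewer transcripts per cell and fewer cells with the transcript cannot be told apart, so detection per cell at equal depth is given where the counts allow. Equal depth counts all UMIs, free RNA included. Among them the selecting genes summed to less in controls, at 4918 to 7565 CPM against 8523 to 16702 in tumors. Detection is not adjusted for this. Lists are described by counts and medians beside these all-gene values.

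**Figure D2:**
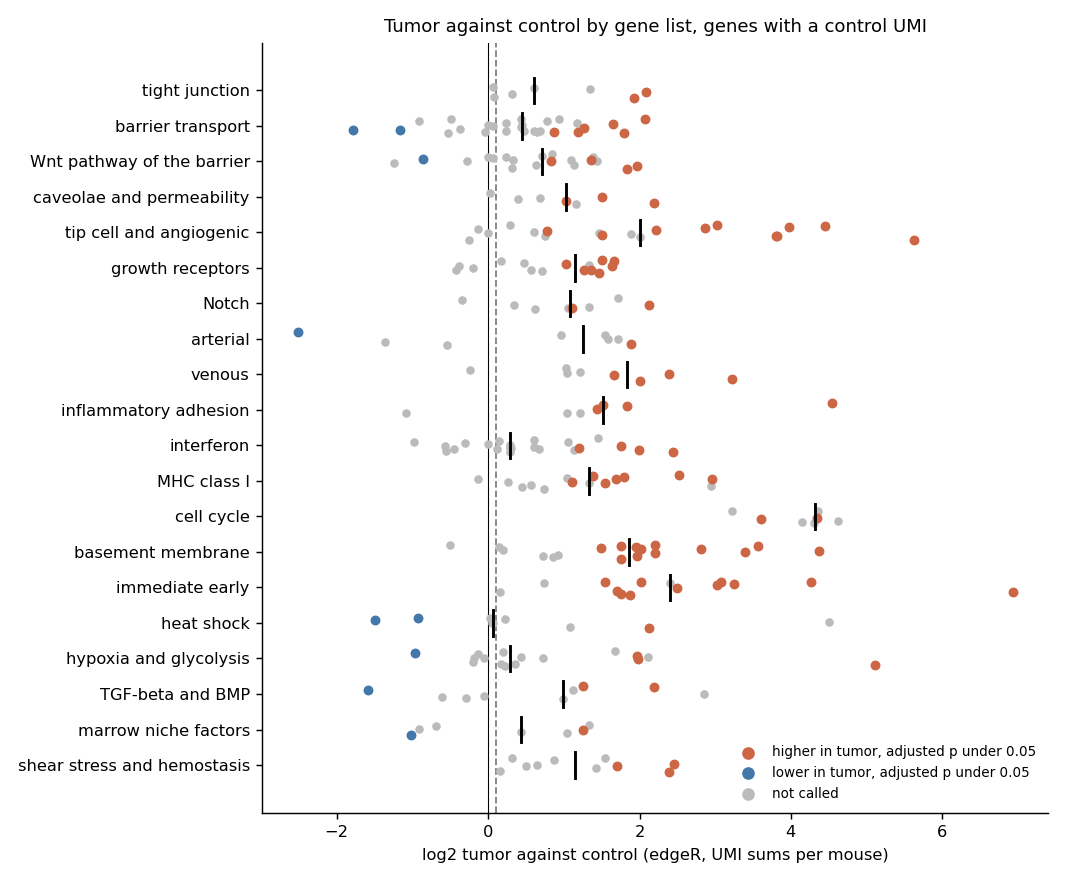
Each point is a gene of the list named at the left, placed at its log2 tumor against control value from edgeR on UMI sums per mouse, for genes tested that had at least 1 control UMI. Orange genes rose and blue genes fell at an adjusted p under 0.05, black bars are the medians of all tested genes of the list, and the dashed line is the median of all 6820 genes (0.10). The basement membrane (1.86), tip cell (2.00) and immediate early (2.40) lists lie farther right than barrier transport (0.45) or interferon (0.29).

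Genes of sprouting vessels rose strongly. Of 26 tip cell and angiogenic genes 21 were tested, 12 rose and none fell, with a median log2 value of 2.00 (1.05 when scaled on the selecting genes). Of the 21, 2 had no control UMI and others, such as Angpt2, had few. Such genes entered the test through the tumors alone, so a fall could hardly be called for them. Angpt2, the antagonist of the receptor Tek that loosens vessels for growth, was at 0, 0, 0 and 21.0 CPM in controls and at 246, 436, 131, 182 and 425 CPM in tumors. All 5 tumors stood above all 4 controls, in which Angpt2 gave 2 UMIs in all. The ratio of pooled UMIs was 40.3, with a 95% counting interval of 11.1 to 333 (adjusted p = 0.00128). Apln, the apelin ligand of tip cells, was at 0, 19.9, 0 and 21.0 CPM in controls and at 229, 393, 79.3, 194 and 328 CPM in tumors, higher by 4.45 ± 0.72 (log2 ± SE, adjusted p = 0.00202). Its receptor Aplnr had no UMI in the control cells and 11.2 to 111 CPM in tumors (191 of its 311 tumor UMIs came from tumor replicate 4), at least 6.89-fold higher and at least 4.18-fold without that mouse, where the floor is 3 counts over the control group. The call for Aplnr (adjusted p = 0.0210) was lost without control replicate 2 (0.0584) or control replicate 4 (0.0588).

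Detection per cell followed the sums. With each cell thinned to 1000 UMIs, Angpt2 was found in 12.2%, 21.9%, 7.76%, 12.8% and 21.3% of tumor endothelial cells and in none of the 92 control cells. Among microglia, which should lack it, 0% to 0.919% of cells per mouse had a UMI at the same depth. Controls held 17 to 27 cells each, so a count of 0 there still allows shares of up to 11.1% to 17.6% per mouse.

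Other members of the list rose as well. Igfbp3, a binding protein for insulin-like growth factors, had no UMI in controls and stood at 213, 512, 174, 99.8 and 161 CPM in tumors, at least 22.5-fold higher (adjusted p = 0.00257) and at least 15-fold without tumor replicate 2. Tumor replicate 2 was far above the other tumors in Igfbp3 and likewise in Adm, the vasoactive peptide adrenomedullin. Adm was at 17.2, 39.9, 0 and 0 CPM in controls and at 111, 516, 143, 138 and 174 CPM in tumors, higher by 3.97 ± 0.81 (adjusted p = 0.00507). Dll4, the Notch ligand by which a tip cell restrains its neighbours, gave 2 control UMIs and 58.8 to 102 CPM in tumors, a ratio of 13.2 with an interval of 3.64 to 110. Plaur, the urokinase receptor, had no control UMI and was at least 4.83-fold higher. Nid2, Mcam, Nrp1, Trp53i11, Adamts1 and Cd34 made up the 12. The 9 tested genes that did not pass included Nrp2 (-0.25), Pdgfb (0.00) and Unc5b (0.60). Of the 12, 9 passed whichever mouse was left out and 10 with free RNA subtracted. Scaled on the selecting genes, which moves most genes down, Nrp1 read -0.27. With limma voom 4 of the list passed, and Apln (adjusted p = 0.133), Adm (0.151) and Igfbp3 (0.0544) did not.

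**Figure D3:**
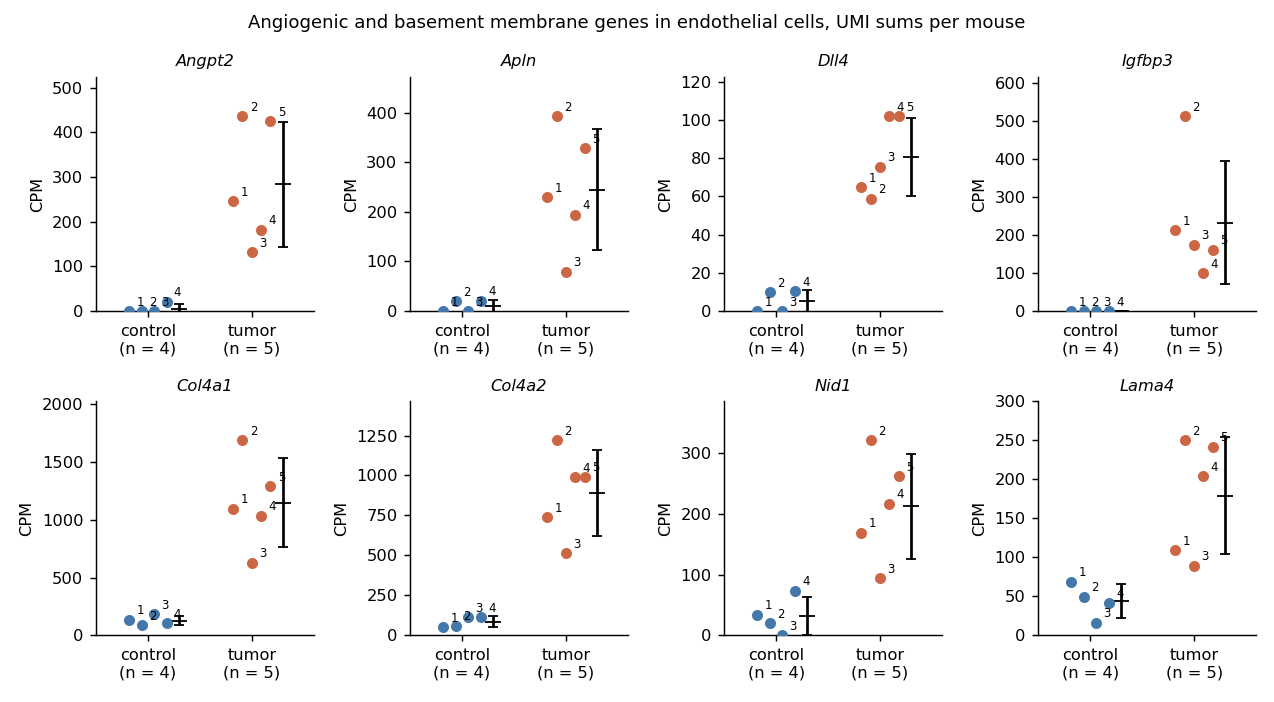
Level by mouse in CPM of 4 angiogenic genes (top) and 4 basement membrane genes (bottom) in endothelial cells, from UMI sums. Points carry replicate numbers and bars are group means ± SD, cut at 0; for each of the 8 genes every tumor lies above every control, as for Angpt2 at 131 CPM or more against 21.0 or less.

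Genes of the vascular basement membrane also rose broadly. Of 18 tested genes 12 rose and none fell, with a median of 1.86 (0.84 when scaled on the selecting genes), and 10 of the 12 passed whichever mouse was left out. Of the 12, 5 passed with free RNA subtracted, and limma voom called 6 of the 18. Col4a1, a chain of type IV collagen, stood at 137, 89.8, 181 and 105 CPM in controls and at 1096, 1687, 630, 1035 and 1292 CPM in tumors. It was higher by 3.39 ± 0.36 (adjusted p = 2.92e-04). Col4a2, its partner chain, went from 51.5, 59.8, 115 and 115 CPM to 739, 1219, 513, 989 and 992 CPM, higher by 3.56 ± 0.37 (adjusted p = 2.92e-04). Every tumor lay above the highest control for either chain. Both passed with free RNA subtracted, at 2.88 and 3.22.

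At 1000 UMIs per cell, Col4a1 was detected in 39.3% to 64.9% of tumor endothelial cells and in 0% to 17.6% of control cells, against 0.298% to 7.83% of microglia. Nid1, which links collagen to laminin, went from 34.3, 19.9, 0 and 73.4 CPM to 169, 321, 94.2, 217 and 262 CPM, higher by 2.81 ± 0.57 (adjusted p = 0.00475). Lama4, the endothelial laminin chain, went from 16.5 to 68.7 CPM in controls to 89.5 to 250 CPM in tumors (2.20 ± 0.47, adjusted p = 0.00601). With voom neither Nid1 (adjusted p = 0.152) nor Lama4 (0.172) passed. Sparcl1 (0.20), Agrn (0.14) and Itga1 (-0.51) did not pass.

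Col4a1 and Col4a2 lie head to head and rose together, so their start regions are shown. The RefSeq windows (build GRCm38.p6) run from 250 bases before to 50 bases after each start site, written 5′ to 3′ on the strand of each gene. They overlap by 78 bases, shown in capitals, and the start sites are 21 bases apart. The Col4a1 window is chr8:11312777-11313076 on the minus strand and the Col4a2 window chr8:11312555-11312854 on the plus strand.
Col4a1: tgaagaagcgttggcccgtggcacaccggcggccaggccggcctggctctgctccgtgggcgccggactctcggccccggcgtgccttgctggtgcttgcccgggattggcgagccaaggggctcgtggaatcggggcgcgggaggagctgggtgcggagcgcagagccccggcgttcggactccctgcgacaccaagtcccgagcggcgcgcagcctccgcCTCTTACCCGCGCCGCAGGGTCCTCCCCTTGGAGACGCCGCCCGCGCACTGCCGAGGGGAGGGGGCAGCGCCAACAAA
Col4a2: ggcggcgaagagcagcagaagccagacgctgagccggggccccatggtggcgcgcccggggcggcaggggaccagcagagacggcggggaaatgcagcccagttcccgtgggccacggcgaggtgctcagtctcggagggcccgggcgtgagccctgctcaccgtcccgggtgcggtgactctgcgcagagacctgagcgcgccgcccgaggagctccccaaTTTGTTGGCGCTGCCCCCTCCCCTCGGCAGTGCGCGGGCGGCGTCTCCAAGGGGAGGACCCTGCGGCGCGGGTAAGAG
The 5 letters ACGTG, the core of the hypoxia response element, were searched on both strands and occur in 19.6% of all 32851 windows of this length. They were in 0 of the 8 windows matched to the 12 risen basement membrane genes and in 0 of the 10 matched to the 12 risen tip cell genes. They were in 4 of the 6 windows of the risen barrier transporters, those of Mfsd2a, Slc16a1, Slc2a1 and Slc3a2. They were also in 2 of the 3 windows of the risen hypoxia and glycolysis genes (Ddit4 and Ldha). Of the 10 matched to risen immediate early genes, 3 held them (Dusp1, Jund and Klf6). The AP-1 letters TGANTCA occur in 7.81% of all windows and in 0 of the 10 matched to risen immediate early genes. They were in 1 of the 10 tip cell windows (Plaur) and 1 of the 6 barrier transporter windows (Slc7a1). None was in the basement membrane or hypoxia windows. A match is a description of the letters only.

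Most barrier transporters did not pass the test, and the balance of higher and lower calls differed with the scaling. Of 27 tested, 6 rose and 2 fell, with a median of 0.45, and without tumor replicate 3 the counts were 5 and 5. Scaled on the selecting genes, 0 rose and 11 fell, with a median of -0.62. Slc2a1, the glucose carrier of the barrier, went from 412, 399, 593 and 336 CPM in controls to 1483, 2052, 2690, 644 and 1058 CPM in tumors, higher by 2.07 ± 0.40 (adjusted p = 0.00413). Mfsd2a, which carries lysophospholipids bearing omega-3 fatty acids and limits vesicle traffic, went from 103, 69.8, 65.9 and 94.4 CPM to 141, 178, 317, 302 and 323 CPM, higher by 1.79 ± 0.34 (adjusted p = 0.00370). For either gene the groups did not overlap. Mfsd2a was detected at equal depth in 11.6% to 30.1% of tumor cells against 0% to 11.1% of control cells, with at most 3.88% of microglia.

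The amino acid carriers Slc7a1, Slc7a5 and Slc3a2 and the monocarboxylate carrier Slc16a1 were the others that rose. None of the 6 passed with free RNA subtracted. Scaled on the selecting genes, which moves most genes down, none passed either, and 5 of the 6 kept a positive sign. The drug efflux pump Abcb1a did not differ by the test, at 349 to 659 CPM in controls and 203 to 967 in tumors (0.00 ± 0.42, adjusted p = 0.998). Slco1a4 stood at 788 to 1269 CPM in controls and 414 to 1935 in tumors (0.24 ± 0.39, adjusted p = 0.712). Under the endothelial scaling they read -1.21 and -0.94, close to the -1.05 by which it moved the median gene.

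Among 7 tested tight junction genes outside the rule, F11r and Esam rose and none fell. The call for F11r was lost with voom (adjusted p = 0.166) and with free RNA subtracted (0.0636). Esam, an adhesion molecule of endothelial junctions, went from 103, 120, 231 and 147 CPM to 508, 434, 701, 643 and 496 CPM (2.08 ± 0.29, adjusted p = 0.00116) and passed with free RNA subtracted. The scaffold gene Tjp1 (0.08) and the junction protein Ocln (0.31) did not pass. Cldn5, the main claudin of brain endothelium and a selecting gene, is given as a description, at 944, 948, 1862 and 1154 CPM in controls and 4283, 4114, 3796, 4942 and 4003 CPM in tumors. Flt1, another selecting gene and a receptor for vascular endothelial growth factor, overlapped fully, at 1945 to 2357 against 726 to 3329 CPM.

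**Figure D4:**
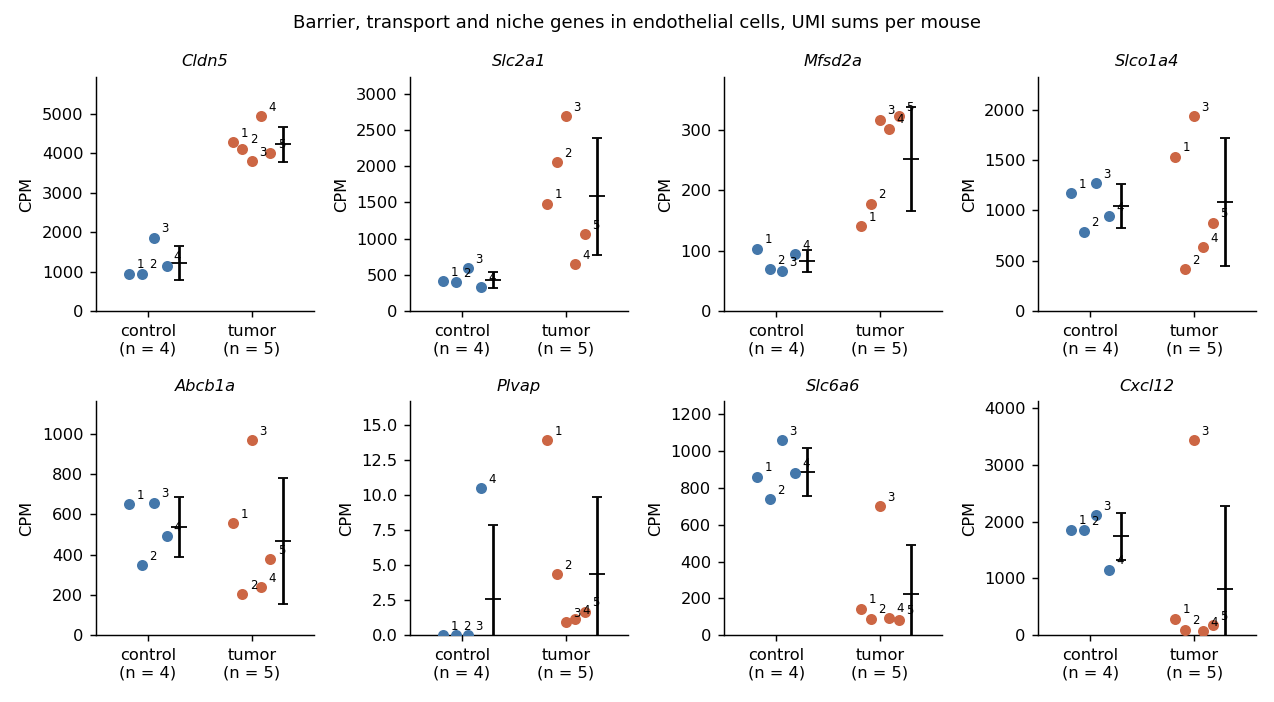
Level by mouse in CPM of barrier, transport and niche genes in endothelial cells, with replicate numbers and means ± SD as bars cut at 0; Cldn5 was used to choose the cells. Tumors exceed controls in Slc2a1 and Mfsd2a, overlap them in Slco1a4 and Abcb1a, and lie below them in Slc6a6, while Cxcl12 is below in 4 tumors and highest of all in tumor replicate 3 (3424 CPM).

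Of 19 tested genes of the Wnt pathway that maintains the barrier, 4 rose and 1 fell, with a median of 0.71. Scaled on the selecting genes 0 rose and 5 fell, with a median of -0.44, and without tumor replicate 3 the counts were 2 and 2 of 16 tested. The receptor Fzd4, its co-receptor component Tspan12, Apcdd1 and Ppard rose, and the co-receptor Lrp6 fell by 0.86 ± 0.29 on the log2 scale (adjusted p = 0.0485). Tspan12 alone of the 5 passed whichever mouse was left out, but not with voom (adjusted p = 0.0986) or with free RNA subtracted (0.0569). None of the 4 that rose passed with free RNA subtracted, and voom called 1 of the 19 higher. The transcription factor Lef1, at 190 to 304 CPM in controls and 135 to 268 in tumors, did not pass (-0.28, adjusted p = 0.475). Axin2, a feedback target of the pathway, was at 85.8, 59.8, 115 and 105 CPM in controls and at 30.1, 18.5, 67.1, 19.7 and 32.2 CPM in tumors. It did not pass with all mice (-1.24, adjusted p = 0.0655) and fell without tumor replicate 3 (-1.77, adjusted p = 0.00494). With the replicate number as a block it fell over all mice (-1.41, adjusted p = 0.0237). With free RNA subtracted it fell over all mice (-1.93, adjusted p = 0.0241).

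Plvap was close to absent in either group. It gave 0, 0, 0 and 1 UMIs in controls and 13.9, 4.36, 0.933, 1.16 and 1.69 CPM in tumors. At equal depth it was found in 0% to 1.44% of tumor endothelial cells and in none of the control cells. Among microglia the range was 0% to 0.253% in tumors and 0.366% to 1.19% in controls. The ratio of pooled UMIs was 0.930 with a counting interval of 0.141 to 39.3, so a difference was not detectable at this depth. Of 7 tested genes of caveolae and permeability, Cavin3, Ehd4 and Emcn rose (Emcn in 3 of 9 fits with 1 mouse left out, and not with free RNA subtracted), while the caveolar coat gene Cav1 stood at 0.03 (adjusted p = 0.972).

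In a second set of genes tumor replicate 3 stood far above the other tumors. Cxcl12, the chemokine that holds leukocytes and blood progenitors, was at 1854, 1845, 2110 and 1154 CPM in controls and at 297, 102, 3424, 71.4 and 178 CPM in tumors. It did not pass with all mice (-0.91 ± 0.91, adjusted p = 0.515) and fell without tumor replicate 3 (-3.32, adjusted p = 3.44e-04). With the replicate number as a block it fell over all mice (-2.50, adjusted p = 0.0177). Slc6a6, the taurine carrier, was at 858, 738, 1055 and 881 CPM in controls and at 144, 90.4, 699, 95.8 and 84.7 CPM in tumors, all below the lowest control. It fell by 1.79 ± 0.57 on the log2 scale (adjusted p = 0.0370). Without tumor replicate 3 the value was -2.98 (adjusted p = 4.47e-05). It missed the threshold with any 1 control left out (0.0833 to 0.105) and without tumor replicate 1 (0.0685) or 2 (0.0558).

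Pltp, a phospholipid transfer protein, ran the same way, at 1097 to 1681 CPM in controls and at 308, 352, 1080, 498 and 335 CPM in tumors (-1.16 ± 0.36, adjusted p = 0.0333; -1.68 without tumor replicate 3). It missed the threshold with any 1 control left out (0.0768 to 0.127) and without tumor replicate 1 (0.0654). Of 7 tested genes of a list of bone marrow niche factors, Tgfb1 rose and Ptn, the heparin-binding factor pleiotrophin, fell by 1.02 on the log2 scale (adjusted p = 0.0124). Neither call held whichever mouse was left out (up to 0.119 for Tgfb1 and 0.0563 for Ptn) or with free RNA subtracted (0.387 and 0.342). Kitl, the ligand of the Kit receptor, stood at 294 to 549 CPM in controls and at a median of 236 and at most 308 CPM in tumors (-0.69 ± 0.29, adjusted p = 0.103). It fell without tumor replicate 3 (-0.92, adjusted p = 0.0247).

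Genes of activated and venous endothelium rose in part. Of 10 tested venous genes 6 rose and none fell, with a median of 1.83, and voom called 2. Of the 6, 4 passed whichever mouse was left out and 4 with free RNA subtracted. Vwf, the clotting factor carrier stored by larger vessels, went from 120, 120, 49.4 and 83.9 CPM to 735, 324, 714, 213 and 196 CPM, higher by 2.39 ± 0.50 (adjusted p = 0.00542; 0.0746 with voom), with no overlap. Tmsb10, an actin-binding peptide, went from 292 to 451 CPM to 1673 to 5684 CPM (3.22 ± 0.38, adjusted p = 4.67e-04). Lcn2, the iron-siderophore binder lipocalin 2, and the adhesion molecule Icam1 belong to the venous and the inflammatory list. Lcn2 had no control UMI and stood at 531, 540, 287, 24.4 and 64.3 CPM in tumors, at least 24.6-fold higher (adjusted p = 0.0146; 0.409 with voom).

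Icam1, which binds leukocyte integrins, had no control UMI and 62.5 to 105 CPM in tumors, at least 8.39-fold higher (adjusted p = 0.00163). At equal depth it was found in 1.44% to 7.17% of tumor endothelial cells and in 2.52% to 12.5% of microglia of the same tumors, cells that also make Icam1. Of 9 tested inflammatory genes 6 rose and none fell, with a median of 1.52, and the others were Icam2, Socs3, Nfkbia and Nfkb1. Of the 6, 4 passed whichever mouse was left out and 3 with free RNA subtracted, and voom called 2 of the 9. Vcam1 stood at 0 to 99.7 CPM in controls and 27.1 to 170 in tumors and did not pass (1.04 ± 0.76, adjusted p = 0.363).

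Interferon targets moved little as a list. Of 23 tested, Ifitm2, Ifitm3, Bst2 and Ifi35 rose and none fell, and the median of 0.29 was near that of all genes. Ifitm2 and Bst2 passed whichever mouse was left out, Ifitm3 (adjusted p = 0.0491) in 1 of 9 such fits. Bst2 alone passed with free RNA subtracted, and voom called none of the 23. Bst2, the antiviral tetherin, went from 52.4 to 140 CPM to 459, 284, 327, 894 and 154 CPM (2.44 ± 0.51, adjusted p = 0.00568; 0.0762 with voom). Isg15 was spread from 38.9 to 341 CPM over the tumors (1.13, adjusted p = 0.188). Of 15 tested genes of the class I antigen pathway 7 rose and none fell, with a median of 1.33, and 1 of the 7 passed whichever mouse was left out. Without tumor replicate 3, 2 of 10 tested rose, voom called 1 of the 15, and none of the 7 passed with free RNA subtracted. The gene that passed with each mouse left out was H2-D1, a class I heavy chain, at 252 to 396 CPM in controls and 1307, 635, 1087, 1421 and 491 CPM in tumors (1.80 ± 0.34, adjusted p = 0.00355; 0.0951 with free RNA subtracted).

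B2m, the light chain of class I, was at 388 to 652 CPM in controls and 428 to 1717 in tumors, overlapping (1.11 ± 0.35, adjusted p = 0.0378). It missed the threshold without any 1 control (0.0614 to 0.115) and without tumor replicate 1 (0.0730) or 3 (0.0527). Scaled on the selecting genes, which moves most genes down, B2m read -0.03. No gene of the class II list of 7 had enough counts to be tested. Cd74, the invariant chain, gave 0 to 3 UMIs per control and 2 to 65 per tumor.

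Of 16 tested growth factor receptors and their partners 8 rose and none fell, with a median of 1.15. They were Flt4, Eng, Aplnr, Robo4, S1pr1, Tgfbr2, Plxnd1 and Ramp2, of which Eng, Robo4, S1pr1 and Ramp2 passed whichever mouse was left out. Aplnr alone of the 8 passed with free RNA subtracted, and voom called 3, not Aplnr (adjusted p = 0.343). Jag2 and Notch4 rose of 8 tested Notch genes, each passing in 5 of the 9 fits with 1 mouse left out, and without tumor replicate 3 none of 6 tested rose. Neither passed with voom or with free RNA subtracted. Of 8 tested arterial genes Clu rose and Stmn2, also a neuronal gene, fell. The mean level of Clu was 323 CPM in controls and 1080 in tumors, below its free RNA level of 475 and 2428, and it did not pass with free RNA subtracted (adjusted p = 0.111). Of 10 tested genes of shear stress and hemostasis Klf2, Plat and Vwf rose, and the call for Klf2 was lost without any 1 control. Smad1 and Tgfb1 rose and Tgfb2 fell of 9 tested genes of transforming growth factor and bone morphogenetic protein signalling. None of these 3 calls held whichever mouse was left out, and voom called none. Tgfb2 missed the threshold without control replicate 2 (adjusted p = 0.0988), 3 (0.140) or 4 (0.0593).

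Of 16 tested genes of hypoxia and glycolysis, Ldha, Angptl4 and Ddit4 rose and Aldoa fell, with a median of 0.29. The 3 that rose also passed with free RNA subtracted, Ddit4 not with voom (adjusted p = 0.161). Free RNA subtraction moved the list's median to 1.82 and that of all genes to 0.72, and Aldoa then read 1.55 and did not pass (adjusted p = 0.246). Angptl4, a lipase inhibitor also made under low oxygen, gave 1 control UMI and 71.4 to 177 CPM in tumors, a ratio of 31.1 with an interval of 5.55 to 1231 (adjusted p = 0.00218). Pgk1 (-0.05), Pfkp (-0.13) and Gapdh (0.20) did not pass. Immediate early genes, which also answer to tissue dissociation, rose widely, with 11 of 15 tested, none lower and a median of 2.40. Of the 11, 6 passed whichever mouse was left out and 8 with free RNA subtracted, and voom called 3 of the 15. Junb went from 17.2, 69.8, 49.4 and 31.5 CPM to 218, 388, 437, 449 and 142 CPM (3.08 ± 0.48, adjusted p = 0.00180; 0.0668 with voom), and Fos from 1 control UMI to 22.0 to 666 CPM (adjusted p = 0.00378; 0.378 with voom). Of 9 tested heat shock genes Hspb1 rose and Hsp90aa1 and Hsph1 fell. With free RNA subtracted the list's median went from 0.06 to 3.73, Hsp90aa1 turned to 4.01 (adjusted p = 0.00736), Hsph1 had too few counts to be tested and Hspb1 did not pass (0.0623). Hspa1a ranged from 1.69 to 673 CPM over the tumors, highest in tumor replicate 3. The part of dissociation in these genes was not tested.

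Cells with 3 or more cell cycle genes at equal depth were found in 4 of 5 tumors. After thinning to 1000 UMIs, 3 or more of 24 cell cycle genes were found in 1.44%, 5.58%, 0%, 10.4% and 13.1% of cells in the 5 tumors, in replicate order, and in none of the control cells. The difference of 6.12 percentage points did not pass (two-sided exact permutation test over 5 against 4 mice, p = 0.0873). Without tumor replicate 3, which had 0 of 219 cells at this depth and so allows up to 1.37%, it was 7.64 (two-sided exact permutation test, p = 0.0286). Without thinning, tumor replicate 3 held such cells too, 1.52% of its 328, and the difference over all mice was 17.3 percentage points (two-sided exact permutation test, p = 0.0556). These transcripts were also abundant outside the endothelial cells. Mki67, the proliferation marker, averaged 47.4 CPM in tumor endothelial cells and 74.0 in the free RNA of the tumors, Top2a 72.6 and 105, and Cenpf 62.1 and 80.6. At equal depth Mki67 was found in 0.457% to 10.4% of tumor endothelial cells and in 0.418% to 8.68% of microglia, so dividing endothelial cells cannot be told apart from background by these counts. Mki67 in microglia itself averaged 4.93 CPM in controls and 58.6 in tumors. Of the endothelial cells, 130 of 297 in tumor replicate 4 carried 3 or more fusion tumor cell genes, 65 of 251 in replicate 2 and 60 of 221 in replicate 5. A control count of 0 allows up to 11.1% to 17.6% per mouse, a range that overlaps the tumor shares. Without cells carrying microglial or fusion tumor cell markers, the shares at equal depth were 1.50%, 5.66%, 0%, 7.69% and 10.8% in tumors. The difference was then 5.13 percentage points (two-sided exact permutation test, p = 0.0873). Hmgb2, a chromatin protein of dividing cells, rose from 51.5, 19.9, 16.5 and 42.0 CPM to 264, 447, 82.1, 421 and 501 CPM (3.60 ± 0.61, adjusted p = 0.00225; 0.217 with voom). Cdk1, the mitotic kinase, had no control UMI and 5.60 to 97.5 CPM in tumors (adjusted p = 0.0401), a call lost without any 1 of the 4 controls (0.0731 to 0.0954). With free RNA subtracted Hmgb2 passed (adjusted p = 0.00684) and Cdk1 did not (0.0696).

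Across all genes, those with the smallest p that rose and stood at least 2-fold above free RNA were Cdkn1a, Rhoc, Col4a2, Col4a1, Igfbp7, Cd93, Tmsb10, Ctla2a, Tmem252, Esam, Angpt2 and Pglyrp1. All 12 also passed with free RNA subtracted. In controls Tmsb10 stood at 365 CPM, near its free RNA level of 378. Cdkn1a, the cell cycle inhibitor p21, went from 103, 59.8, 33.0 and 31.5 CPM to 491, 715, 466, 723 and 669 CPM (3.66 ± 0.35, adjusted p = 2.27e-04). Igfbp7, a secreted matrix protein of vessels, went from 440 to 755 CPM to 2690 to 5569 CPM (2.92 ± 0.32). Cd93, an endothelial receptor of matrix proteins, went from 85.8 to 105 CPM to 283 to 496 CPM (2.30 ± 0.27). Ctla2a, a cysteine protease inhibitor, stood at 330 to 535 CPM in controls and at 8911, 9253, 1857, 3331 and 5484 CPM in tumors (3.88 ± 0.49). Rhoc, a small GTPase, rose by 3.19 and Tmem252 by 5.25.

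Of the 12 that fell by the same rule, 11 are named here, which were Unc13c, Ash1l, Leng9, Usp34, Kmt2a, Pnisr, Shprh, Vps13a, Epb41l2, Arap2 and Syne2. Ash1l and Kmt2a are histone methyltransferases, and Unc13c is a synaptic vesicle priming protein. Ash1l went from 412, 359, 346 and 252 CPM to 127, 106, 138, 108 and 110 CPM (-1.34 ± 0.22, adjusted p = 0.00218). Kmt2a went from 209 to 283 CPM to 64.9 to 117 CPM (-1.28 ± 0.26, adjusted p = 0.00505). The groups did not overlap for either gene. In all other kept barcodes the mean also fell, from 242 to 135 CPM for Ash1l, 347 to 127 for Kmt2a and 85.6 to 11.4 for Unc13c. Of the named genes, Epb41l2 (72.0 to 110 CPM) and Syne2 (17.9 to 46.1) were higher there in tumors. Against microglia, by the test given below, no difference was shown for Ash1l (-0.31, adjusted p = 0.697), Kmt2a (0.12, 0.926) or Unc13c (-0.86, 0.521). Unc13c went from 73.4 to 132 CPM to 1.16 to 16.2 CPM (-3.97 ± 0.63). Thinned to 1000 UMIs per cell, Ash1l (adjusted p = 0.0618), Kmt2a (0.0582), Usp34 (0.226), Pnisr (0.0651) and Arap2 (0.437) missed the threshold, and without a filter on low counts Shprh (0.0684), Epb41l2 (0.132) and Syne2 (0.0594) did. Of all 733 genes that fell, 73 passed with free RNA subtracted. The 8 named genes other than Unc13c, Ash1l and Kmt2a fell by 1.15 (Epb41l2) to 2.38 (Leng9) on the log2 scale.

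Tumor endothelial cells were not alike in the angiogenic genes. Cells with at least 1 UMI of Angpt2 or Apln after thinning to 1000 UMIs, a division chosen after the values were seen, numbered 22, 71, 27, 64 and 67 in tumor replicates 1 to 5. They were compared with the rest of the same tumor as a description, since an exact sign-flip test of 5 pairs cannot pass a threshold of 0.05. Col4a1 was detected in 81.8%, 78.9%, 44.4%, 79.7% and 80.6% of the cells with Angpt2 or Apln and in 45.3%, 59.4%, 38.5%, 48.5% and 48.1% of the cells without. The basement membrane genes together took 11.4 to 21.0 of 1000 UMIs against 7.04 to 10.9, higher in 5 of 5 tumors.

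Adm, Dll4, Cd34 and Vwf were also detected more often in 5 of 5 tumors. Adm was found in 22.7% to 46.5% of cells with Angpt2 or Apln against 0.855% to 18.9%, and Cd34, a surface sialomucin, in 46.3% to 70.3% against 28.6% to 44.6%. Slco1a4 went the other way in 5 of 5 tumors, at 54.5%, 22.5%, 70.4%, 26.6% and 31.3% against 73.5%, 41.1%, 76.0%, 42.5% and 57.8%. Cxcl12 was likewise detected less often in 5 of 5, at 2.82% to 55.6% against 7.73% to 61.5%. Slc2a1 and Mfsd2a were higher in 2 tumors and lower in 3. Cell cycle genes took 0.0741 to 1.54 of 1000 UMIs with Angpt2 or Apln and 0.193 to 1.49 without. Transcripts of the fusion tumor cell list were lower in the cells with Angpt2 or Apln in 5 of 5 tumors, at 0 to 1.06 against 0.137 to 2.58 of 1000 UMIs.

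**Figure D5:**
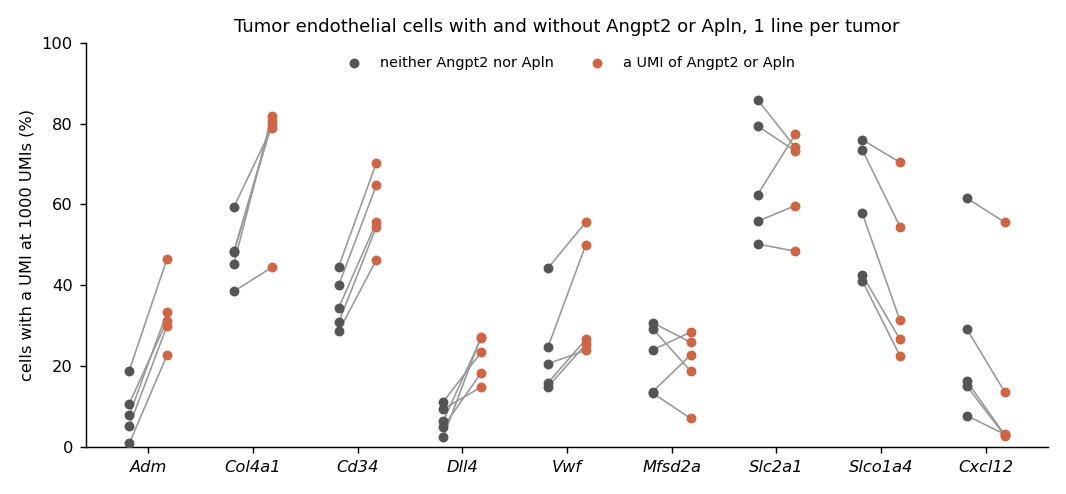
Percent of tumor endothelial cells with a UMI of each gene after thinning to 1000 UMIs, for cells without (grey) and with (orange) a UMI of Angpt2 or Apln, joined by 1 line per tumor. Lines rise in all 5 tumors for Adm, Col4a1, Cd34, Dll4 and Vwf, fall in all 5 for Slco1a4 and Cxcl12, and run both ways for Mfsd2a and Slc2a1.

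Microglia of the same mice served to ask which differences were not shared by another cell class. A model over the sums of both classes tested, for 11545 genes, whether the tumor-control difference was larger or smaller in endothelial cells. It was higher in endothelial cells for 154 genes (1.33% of those tested) and lower for 39 (0.338%). With free RNA subtracted the balance turned, to 293 higher and 882 lower of 8523 tested. In microglia the neuronal list stood at 1.38 to 1.77 times its free level in controls and 0.192 to 0.405 times in tumors. The limit of 1 was thus reached in every control, where a profile as large as the whole microglial sum was subtracted. Values against microglia under this subtraction, here and below, are a description and support no call. With 1 mouse left out and free RNA kept, the counts were 56 to 237 higher and 18 to 89 lower. Angpt2 differed by 5.83 ± 0.93 on the log2 scale (adjusted p = 0.00162) and Apln by 4.06 ± 0.82 (0.00919). Microglia held 1.86 to 7.15 CPM of Angpt2 in tumors and 2.01 to 5.37 in controls. Col4a2 differed by 2.87 ± 0.32 (adjusted p = 8.44e-05), with microglia at 14.1 to 23.7 CPM in controls and 14.6 to 36.8 in tumors. Its partner Col4a1 did not pass (1.64 ± 0.48, adjusted p = 0.0931), with microglia at 8.03 to 21.5 CPM in controls and 13.4 to 82.1 in tumors. Nor did Dll4 (adjusted p = 0.703), Adm (0.737) or Igfbp3 (0.268). Tumor microglia held only 0.929 to 7.51 CPM of Dll4, 1.86 to 18.4 of Adm and 1.86 to 30.3 of Igfbp3. The standard errors were 1.89, 1.46 and 3.60, so at these counts the test cannot tell whether the 3 rises were shared. Cdkn1a, which led the genes that rose in endothelium, also went from 6.45 to 18.1 CPM to 45.8 to 207 CPM in microglia, and a difference between the classes was not shown (0.13 ± 0.53, adjusted p = 0.963).

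Among the most certain differences in the same direction were Ccn2, a matrix-associated growth regulator, at 4.91 ± 0.57, and Cdc42ep3, an effector of Cdc42, at 3.97 ± 0.52. Ccn2 stood at 10.5 to 34.3 CPM in control endothelium and 145 to 962 in tumors, and at 2.13 to 11.8 CPM in microglia of either group. Slc1a1 (3.54) and Sema7a (3.12) also passed. Microglia went from 33.7 to 50.2 CPM of Slc1a1 in controls to 5.08 to 12.3 in tumors, and from 21.5 to 29.1 CPM of Sema7a to 2.24 to 5.88. With free RNA subtracted, at the limit just given for control microglia, both turned negative, at -0.48 for Slc1a1 and -1.77 for Sema7a, and neither passed. Ccn2 read 5.85 and did not pass (adjusted p = 0.196), whereas Col4a2 (0.00646) and Cdc42ep3 (0.0118) did. Of the tip cell list 5 genes of 23 tested were higher and 1 lower, and of the basement membrane list 4 of 19 were higher and 1 lower.

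The tumor-control difference, read with its sign, was lower in endothelial cells than in microglia for Klf2 (-3.22 ± 0.37), Apoe (-2.32 ± 0.30), Ttr (-3.05 ± 0.38), Syne2 (-2.73 ± 0.41) and Cald1 (-2.86 ± 0.46). Klf2, a transcription factor of vessels under flow, stood at 181 to 360 CPM in control and 179 to 1443 in tumor endothelium, while microglia went from 6.02 to 16.1 CPM to 56.9 to 685 CPM. Apoe, a lipid carrier of glia and macrophages, was at 1535 to 8169 CPM in tumor endothelium and 11200 to 54672 CPM in tumor microglia. With free RNA subtracted Apoe read -6.31 (adjusted p = 0.0760) and Syne2 -2.26 (0.372), neither passing. The Ttr difference was lost without tumor replicate 1 (-1.57, adjusted p = 0.732). The mural genes Rgs5 and Vtn were also lower by this test. Cells with no mural gene detected were 3 of 26, 4 of 27, 1 of 17 and 5 of 22 in controls. In tumors they were 87 of 144, 188 of 251, 298 of 328, 234 of 297 and 106 of 221. The part of mural transcripts in the Cald1 difference, or of choroid plexus transcripts in that of Ttr, was not tested separately. For Slc6a6 the difference between the classes was -2.58 ± 0.52 (adjusted p = 0.00980), and the level in microglia was 88.4 to 147 CPM over the tumors. None of 17 tested class I genes passed, where 0.338% of all genes were lower, and their median was -0.96, so equal change is not shown. H2-D1, for example, went from 93.9 to 263 CPM to 810 to 1598 CPM in microglia, a difference of -1.17 ± 0.30 (adjusted p = 0.0504).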

How the data were processed

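Single-cell 5′ gene expression libraries (10x Genomics) of 4 control and 5 tumor mice were used as deposited, as raw UMI counts per gene and barcode. Per the labels, the authors aligned reads to mm10 with Cell Ranger 7 and used Scanpy 1.8.2, while the deposited matrix headers name Cell Ranger 6.1.2. Members and gene lists were chosen with earlier results of these data known. Genes named outside the lists were the 12 with the smallest p in each direction that kept their direction with each mouse left out and reached 2 times the free RNA level, and 5 in each direction for the comparison with microglia among genes with at least 100 CPM. Microglia were barcodes with at least 4 of 8 marker genes.

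Sums of UMI counts per mouse entered the quasi-likelihood F-test (edgeR 4.0.16, TMM scaling, Benjamini-Hochberg adjustment, R 4.3.3), without a block. Each sample was taken as 1 mouse, and cells were never treated as replicates. For shares, an exact permutation test (two-sided, scipy 1.17.1) was taken over mice. Intervals (95%, exact) and the limit for a count of 0 (3 counts) cover counting error only. Alternatives used DESeq2 1.42.0, limma voom 3.58.1, other filters and thinning. The gene test was checked on simulated data. No doublet caller was run. Results of 2 genes are not reported here.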

Additional observations from a re-analysis of the deposited data

Results flagged for a closer look

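In 107 groups of values with at least 10 UMIs, 9 had a mouse far from the rest of its group, where chance flags about 1 in 20. Tumor replicate 3 was the mouse in 6 of them, at 699 CPM of Slc6a6, 1080 of Pltp, 67.1 of Axin2, 3424 of Cxcl12, 673 of Hspa1a and 37917 of the hemoglobin gene Hbb-bs. Control replicate 3 stood out in Hbb-bs at 5241 CPM. Tumor replicate 2 stood out at 512 CPM of Igfbp3 and 516 of Adm.

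The tumor-control difference, read with its sign, was higher in endothelial cells than in microglia, by the interaction test of edgeR, for Slc1a1 (3.54 on the log2 scale), Col4a2 (2.87), Sema7a (3.12), Ccn2 (4.91) and Cdc42ep3 (3.97). It was lower for Klf2 (-3.22), Apoe (-2.32), Ttr (-3.05), Syne2 (-2.73) and Cald1 (-2.86). The part of choroid plexus transcripts in the Ttr value, or of mural transcripts in that of Cald1, was not tested separately.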

How the results depend on the processing

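Of the alternative values of genes followed singly, which leaves out most list members, 1319 kept direction and side of the threshold, 106 no longer passed, 24 newly passed and 4 reversed. The share of endothelial cells passed under every alternative run, at 3.26 to 3.97 percentage points with 1 mouse left out, 1.27 without cells with markers of 5 other classes, which left 0.00308% in controls, and 5.59 with 1 UMI minimum. That marker filter left 1, 0, 0 and 0 control cells. Requiring no mural gene left 3, 4, 1 and 5, and a mitochondrial limit of 10% left 4, 6, 3 and 4. These 3 settings removed most control cells, so passing under them adds no support. The cycling share differed by 4.36 to 7.64 with 1 mouse left out and passed without tumor replicate 3. Of genes changed in endothelial cells, limma voom gave 280 higher and no filter on low counts 1454. Thinning to 1000 UMIs gave 105 higher and 62 lower, an equal number of cells per mouse 180 and 138, and free RNA subtraction 118 lower. Scaling on the 8 selecting genes, chosen after seeing the data, gave 106 higher and 2550 lower, and 91 of the 817 turned. Genes higher made up 52.7% of calls, against 28.2% with voom, 66.9% without a filter, 62.9% thinned, 89.4% with free RNA subtracted and 3.99% with that scaling. With 1 mouse left out the counts were 492 to 717 higher and 367 to 704 lower, lowest without control replicates 4 and 2. Against microglia (154 and 39), no filter gave 300 and 103, free RNA subtraction 293 and 882, and leaving out cells with microglial or fusion tumor cell markers, also chosen after seeing the data, 256 and 82. With 1 mouse left out they were 56 to 237 and 18 to 89, highest without tumor replicate 3. Slco1a4 (-0.94) and B2m (-0.03) reversed under the endothelial scaling, and Slc1a1 (-0.48) and Sema7a (-1.77) against microglia with free RNA subtracted. In that subtraction the microglia of every control were at the limit of 1 times the free level. The cause of these reversals was not tested. With the replicate block 808 genes were higher and 751 lower. Same-numbered mice correlated at 0.01 to 0.05, so the numbers do not pair them. A mitochondrial limit of 10%, no mural gene detected, leaving out cells with markers of 5 other classes, and at least 30 cells per mouse were not run for genes, since 0 control mice then had enough cells. The 17 to 27 cells per control limit every comparison.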
